A study of Mus musculus with 123 samples.

Results

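The 150 most abundant long noncoding RNAs (lncRNAs) of the mouse preimplantation embryo were followed through loss of the transcription factors Oct4 and Sox2. They were chosen by their UMI sum. A UMI, or unique molecular identifier, is a barcode that lets each captured RNA molecule be counted once. The count table named 4905 genes as lncRNA and 0 as lincRNA. Leaving out the X and Y chromosomes and the imprinted H19, Meg3, Rian, Kcnq1ot1 and Airn left 4810 genes, of which 4505 had at least 1 UMI, and the 150 with the largest sum over all embryos were kept. Gm33466 closed the list with 735 UMIs after Gm50147 with 737, and Gm28791 with 732 and Gm16185 with 715 stood just outside it. Because the sum pools all embryos, a gene that is high in a single group could enter through that group alone. The levels below are therefore a description. The sum includes the KO embryos, so it can favour genes that are high in KO, and counts of members higher in KO carry this limit. Gm36899, Gm3143 and Gm4926 had their highest group means in KO late ICMs. Of the 150 members, 139 also stood among the 150 largest sums of the 48 control embryos.

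Each library came from a single embryo. In the Oct4 line, Pou5f1 flox/flox; Zp3-Cre mothers, in which Cre deletes the gene in the growing oocyte, were mated with Pou5f1 +/mKO2 fathers. In the Sox2 line, Sox2 flox/flox; Zp3-Cre mothers were mated with Sox2 +/EGFP fathers. Fluorescent embryos lacked both the maternal and the paternal gene (KO) and carried a reporter driven by the PGK promoter. The unlabelled embryos of the same cross kept the paternal allele alone and served as control (Ctrl), so the controls too had no maternal product. Another kind of embryo came from mothers whose gene was intact (MWT). Ctrl and KO were sampled as whole morulae and as early and late inner cell masses (ICMs), with 8 embryos in each of the 12 groups, labelled E2.75, E3.75 and E4.5. Oct4 MWT embryos numbered 7 morulae, 5 early and 8 late ICMs, and Sox2 MWT embryos 7 early ICMs. ICMs came from embryos cultured from E2.5 in KSOM with 1 µM of the MEK inhibitor PD0325901 and were freed of trophectoderm by immunosurgery, so that stage, culture and isolation cannot be told apart. The source names of the Oct4 MWT ICMs gave an earlier stage than their titles, and the titles were used.

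LncRNAs are transcripts, mostly spliced and polyadenylated, that are not known to encode a protein. Some work as RNA, such as the nuclear Malat1 and Neat1. Others act as carriers: snoRNA host genes hold in their introns the small nucleolar RNAs that guide the chemical modification of ribosomal RNA. For many more, among them most genes with a Gm number or a Riken clone name, no function is known. In the early embryo lncRNA levels change quickly from stage to stage, and Oct4 and Sox2 bind regulatory DNA of coding and noncoding genes alike.

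Among the members, 73 were Gm models, 36 Riken clones, 7 other clones and 34 carried another name. The label long intergenic holds only in part. Of the 150, 94 overlapped no protein-coding gene, while 56 did, 46 of them on the opposite strand and 14 on the same strand, with 4 in both counts, and 41 shared exon bases with a coding exon. The GENCODE vM21 annotation typed 78 as lincRNA, 34 as processed transcript, 26 as antisense, 7 as bidirectional promoter lncRNA, 3 as sense intronic and 2 as protein coding. Whether strand was used in counting was not stated, so reads of an overlapping or antisense member cannot be told apart from those of its partner. In 24 members 263 annotated snoRNAs lay inside on the same strand, 208 of them in Snhg14. By the annotation's biotype 3 members, Snhg4, Snhg20 and Dleu2, held a microRNA on the same strand, while Mir5117 in Gas5 and Mir3096 in AI506816 were typed as snoRNAs and counted there. The median member had 3 exons in its largest transcript and 1684 exon bases, and 17 had a single exon.

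The 150 members held 587020 of 109258315 UMIs, or 0.537% of all UMIs and 74.7% of those of the eligible lncRNAs. The 12 most abundant members held 44.0% of the members' UMIs. They were Gm42418, 1110038B12Rik, Gas5, 2410006H16Rik, Snhg6, Zfas1, Snhg1, Malat1, BC051077, Snhg5, Gm44618 and BC048559. Of these, 1110038B12Rik, Gas5, 2410006H16Rik, Snhg6, Zfas1, Snhg1 and Snhg5 held annotated snoRNAs. Gm42418 led with 43086 UMIs. It lies at mm10 chr17:39846958-39848788 (+) and was the only member to overlap an annotated ribosomal RNA gene, CT010467.1, and Gm26917 lies next to it at chr17:39843013-39846341 (+). Both lie beside ribosomal RNA sequence that occurs in many copies in the genome, so their counts are uncertain.

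Abundance was not uniform among members. A UMI was found in every embryo for 81 members, and the most restricted member was seen in 68 embryos. The highest of the 16 group means was a median of 5.50 times the lowest. It was over 10 times the lowest in 50 members, and under 2 times in 3. The highest group mean was that of an early ICM group in 68 members, a late ICM group in 49 and a morula group in 33. It was an Oct4-line group in 122 and a Sox2-line group in 28, with 9 of the 16 groups from the Oct4 line. Between 114 and 128 of the members stood among the 150 most abundant eligible lncRNAs of each group taken alone.

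**Figure D1:**
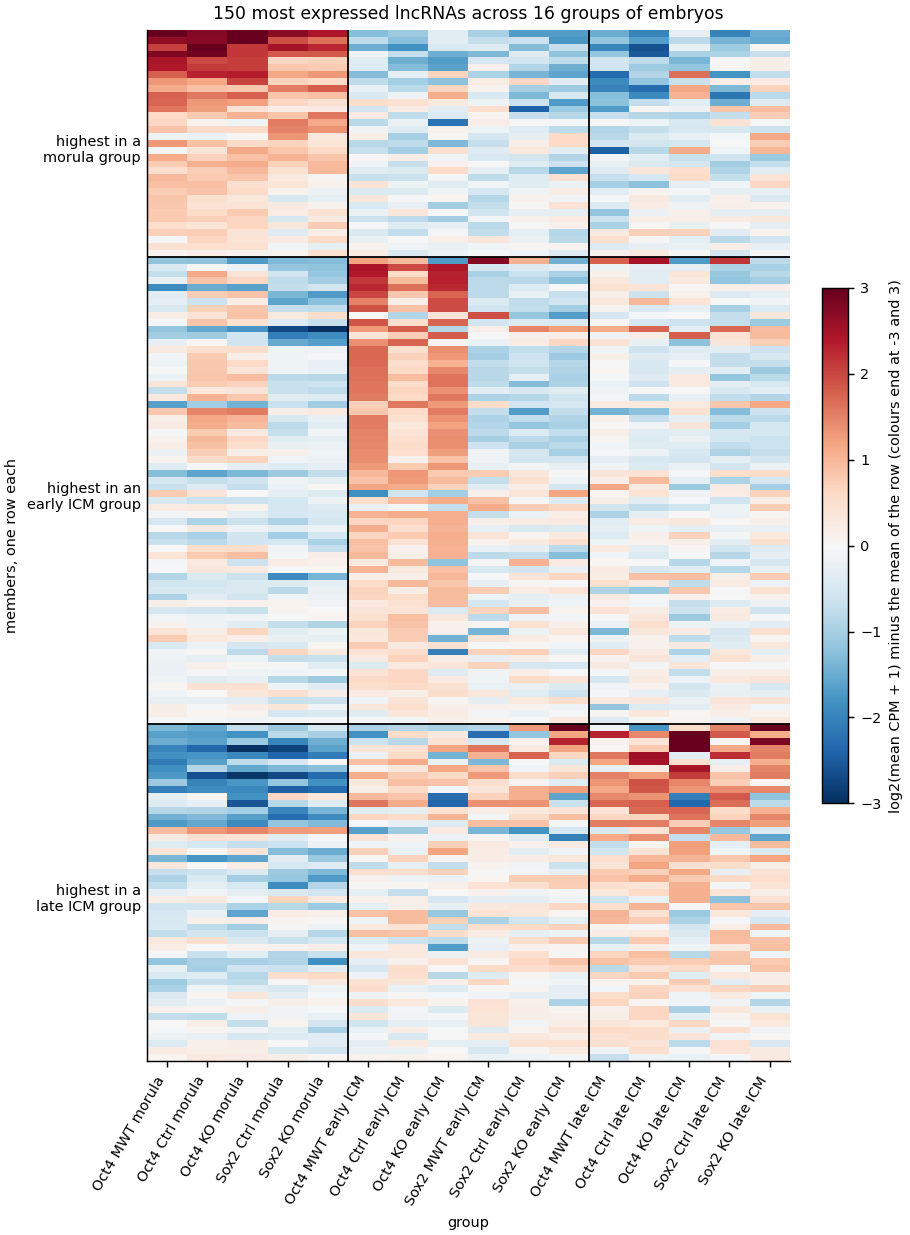
Levels of the 150 members (rows) in the 16 groups of embryos (columns), as log2 of the group mean in CPM (UMIs per 1e6 UMIs of the library) plus 1, minus the mean of the row. Rows are ordered by the stage of their highest group, with 33 in morulae, 68 in early ICMs and 49 in late ICMs, and a block of rows is dark red in the Oct4-line early ICMs alone.

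CPM stands for UMIs per 1e6 UMIs of the library. Depth ran from 525755 to 1344035 UMIs per embryo, so 1 CPM was close to 1 UMI. The deleted genes were read first. Pou5f1 was at 13.4 to 93.6 CPM in Ctrl of the Oct4 line and at 0 to 4.73 in KO. Sox2 was at 72.6 to 299.1 CPM in Ctrl ICMs of the Sox2 line and at 7.74 to 36.4 in KO ICMs. In morulae of the Sox2 line, at 2.91 to 34.2 CPM in Ctrl and 0 to 3.32 in KO, Sox2 overlapped between the groups. Of 8 epiblast markers, all had a mean of at least 1 CPM in every Ctrl group. All 7 trophectoderm markers did so in the late ICMs of both lines and in Oct4 Ctrl early ICMs. In whole morulae and ICMs, fewer cells of a type and less RNA per cell cannot be told apart. P-values below measure the spread between embryos, whose litters were not given. Late Ctrl and KO ICMs carry numbers of 2 sets (1 or 2 before the dash) whose meaning was not stated, and each set held 3 to 5 embryos of a group.

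Loss of Oct4 or Sox2 was examined first. A member was called where the edgeR quasi-likelihood test gave a Benjamini-Hochberg adjusted p under 0.05 over all genes tested and a change of at least 2-fold. In Oct4-KO morulae 3 members were lower and 0 higher than in Ctrl, while 0.626% of the 14053 genes tested were called lower and 0.178% higher. In Oct4-KO early ICMs 23 members (15.3%) were higher and 14 (9.33%) lower, against 4.77% and 6.11% of all genes. In Oct4-KO late ICMs 20 members (13.3%) were higher and 16 (10.7%) lower, against 9.25% and 8.85% of all genes. The median log2 fold change of the members was 0.16 in early and 0.12 in late ICMs, beside 0.01 and -0.01 for all genes. Scaling by library totals alone changed the early split to 15 higher and 15 lower and the late split to 18 higher and 19 lower. The members were chosen by a sum that includes the KO embryos, which can raise the count called higher.

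Changes were fewer in the Sox2 line. In Sox2-KO morulae 0 members were called, with 11 at an unadjusted p under 0.05, and 0 were called by DESeq2 as well, while 0.00712% of all genes were called lower and 0.0% higher. In Sox2-KO early ICMs 4 members (2.67%) were higher and 5 (3.33%) lower, against 1.57% and 1.69% of all genes. In Sox2-KO late ICMs 13 members (8.67%) were higher and 5 (3.33%) lower, against 3.34% and 3.61% of all genes, and scaling by library totals alone gave 11 higher and 8 lower. The members' median log2 fold change was 0.03 in early and 0.23 in late ICMs, beside -0.01 and 0.00 for all genes. Here too the sum that chose the members includes the KO embryos, which can raise the count called higher.

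Cell type markers moved with the KO groups. The 8 epiblast markers were Nanog, Sox2, Pou5f1, Fgf4, Tdgf1, Klf2, Utf1 and Gdf3. They include the deleted gene of each line, so part of each fall in their sum was set by the genotype. In late ICMs of the Oct4 line the summed level of the 8 epiblast markers was 2409 to 3699 CPM in Ctrl and 360.4 to 1045 in KO. The sum of the 7 trophectoderm markers was 202 to 1019.6 CPM in Ctrl and 1207 to 2927 in KO. In the Sox2 line the epiblast sum of late ICMs was 2422 to 4183 CPM in Ctrl and 1193 to 1772 in KO, and the trophectoderm sums overlapped, at 219.6 to 2785 and 573 to 1718. In early ICMs the epiblast sum was 1404 to 2314 CPM in Oct4 Ctrl and 955 to 1578 in Oct4 KO, and 1503 to 3658 and 1010.5 to 1449 in the Sox2 line. The early trophectoderm sums overlapped between Ctrl and KO in both lines. The part of these shifts in the changes of single members was not tested.

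Platr10, 4930566F21Rik and Rbfaos fell in the KO ICMs of both lines at both stages. Platr stands for pluripotency-associated transcript, and Platr10 was 1 of 3 members of the list of pluripotency-associated lncRNAs, with Lncenc1 and Platr27. Platr10 lies at mm10 chr3:75647446-75655731 (-), overlaps no annotated gene and was rank 136 by UMI sum. Its RefSeq promoter (GRCm38.p6, chr3:75655682-75655981, - strand, 250 bases before to 50 after the start) is shown because Platr10 fell in 5 KO comparisons. CpG dinucleotides are in capitals, and the window holds 1.

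Platr10: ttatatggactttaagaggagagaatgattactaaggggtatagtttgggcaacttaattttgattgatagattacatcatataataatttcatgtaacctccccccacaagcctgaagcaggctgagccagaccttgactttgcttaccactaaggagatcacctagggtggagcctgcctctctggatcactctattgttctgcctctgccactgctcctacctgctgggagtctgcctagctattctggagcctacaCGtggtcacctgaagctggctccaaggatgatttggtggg

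In early ICMs Platr10 was at 3.82, 10.5 and 14.9 CPM (lowest, median and highest) in Oct4 Ctrl and at 0, 0 and 1.21 in Oct4 KO. The groups did not overlap, and the 8 KO embryos held 2 UMIs together against 70 in Ctrl. By these sums KO stood at 2.80% of Ctrl (exact 95% interval for counting error only, 0.332% to 10.5%). The fitted log2 fold change was -4.54 ± 0.60 (SE, n = 8 and 8, adjusted p = 2.51e-09). In late ICMs Ctrl was at 8.03, 15.5 and 19.99 CPM and KO at 0, 0 and 2.57, again without overlap, with 3 against 78 UMIs, a ratio of 3.42% (0.691% to 10.4%). Platr10 was already lower in Oct4-KO morulae, where Ctrl was at 2.12, 4.72 and 11.6 CPM and KO at 0, 0.432 and 3.24. There the groups overlapped, and the log2 fold change was -2.65 ± 0.53 (adjusted p = 0.00113).

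Platr10 also fell in the ICMs of the Sox2 line. Early Ctrl was at 3.27, 10.8 and 24.3 CPM and KO at 0, 1.05 and 2.148, a log2 fold change of -3.25 ± 0.47 (adjusted p = 3.93e-07). Late Ctrl was at 8.13, 21.6 and 40.9 CPM and KO at 0, 1.17 and 4.99, a log2 fold change of -3.46 ± 0.44 (adjusted p = 1.37e-09). The groups were separate at both stages. Sox2-KO morulae were at 3.43, 5.68 and 10.6 CPM and Ctrl morulae at 4.75, 6.34 and 23.5, and Platr10 was not called there. The other members of the list, Lncenc1 and Platr27, were called in 0 KO comparisons. Thus 1 of 3 members (33.3%) was called lower in Oct4-KO morulae, early and late ICMs and in Sox2-KO early and late ICMs, beside 0.626%, 6.11%, 8.85%, 1.69% and 3.61% of all genes.

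4930566F21Rik (chr5:31486629-31495179, -) is annotated antisense to Gpn1, a GTPase gene, and to 4930548H24Rik, so its reads are uncertain. Ctrl morulae of the Oct4 line were at 0, 4.02 and 10.1 CPM, with 31 UMIs in all, and all 8 KO morulae were at 0. Against a floor of 3 UMIs over the group, the level was at least 10.6-fold lower in KO. In early ICMs Ctrl was at 8.19, 11.6 and 16.6 CPM and KO at 0, 0 and 1.04. In late ICMs Ctrl was at 11.1, 17.6 and 34.2 CPM and KO at 0, 0 and 1.19. KO and Ctrl were separate at both ICM stages. Each KO group held 1 UMI, against 81 and 100 in Ctrl, so KO stood at 1.21% (0.0302% to 6.93%) and 0.890% (0.0223% to 5.08%) of Ctrl.

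Loss of Sox2 left more of the 4930566F21Rik transcript. Early Ctrl was at 8.71, 14.6 and 22.1 CPM and KO at 0.972, 2.27 and 5.02 (log2 fold change -2.25 ± 0.36, adjusted p = 3.77e-06). Late Ctrl was at 13.9, 18.1 and 21.5 CPM and KO at 0, 1.62 and 8.13 (-2.70 ± 0.37, adjusted p = 2.1e-08). The groups did not overlap at either stage. The test of the difference between the effects of the lines called 4930566F21Rik at both ICM stages, by 3.09 ± 0.74 in early ICMs (adjusted p = 0.00329) and 3.22 ± 0.78 in late ICMs (adjusted p = 0.00471). These values rest on KO groups with 1 UMI and depend on how the fit treats near-zero counts.

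Rbfaos (chr18:80186239-80193569, +) is the opposite-strand transcript of Rbfa, which encodes a ribosome assembly factor, and overlaps it. In early ICMs of the Oct4 line Ctrl was at 6.08, 10.8 and 22.5 CPM and KO at 0, 0.532 and 3.64 (-3.31 ± 0.54, adjusted p = 1.09e-06). In late ICMs Ctrl was at 11.4, 38.0 and 61.8 CPM and KO at 0, 0.582 and 4.35 (-4.88 ± 0.52, adjusted p = 4.28e-13). Neither pair of groups overlapped. Early Sox2 Ctrl was at 1.04, 11.9 and 29.8 CPM and KO at 0, 1.08 and 4.16, with overlap (-2.93 ± 0.49, adjusted p = 1.16e-05). Late Ctrl was at 19.1, 24.4 and 48.5 CPM and KO at 0, 2.86 and 4.99, without overlap (-3.16 ± 0.44, adjusted p = 2.35e-08). In morulae of all groups Rbfaos was at most 4.07 CPM.

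**Figure D2:**
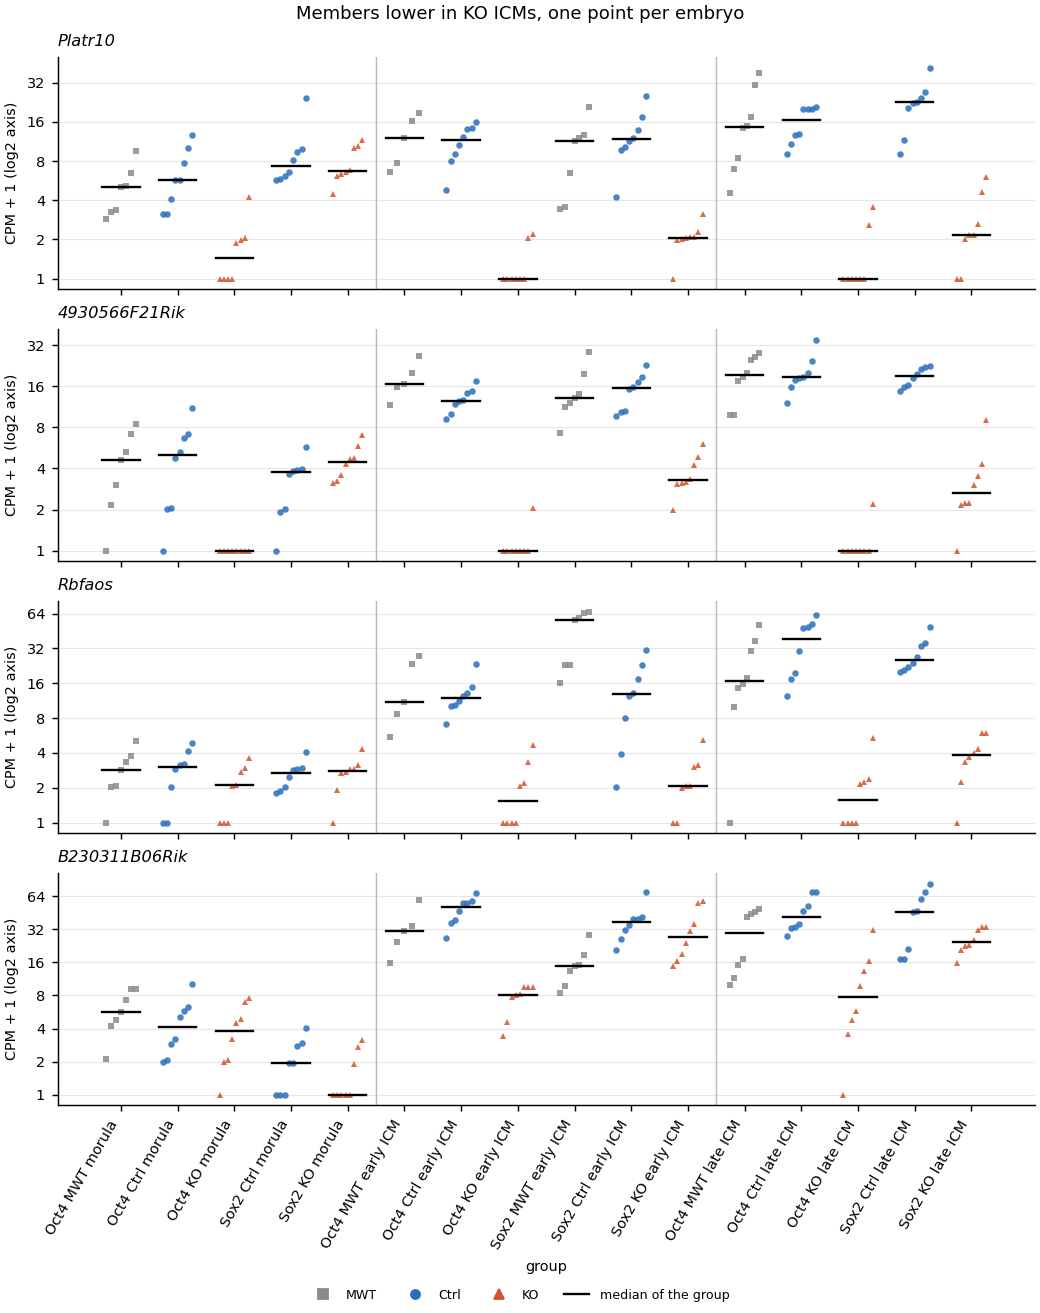
Levels of Platr10, 4930566F21Rik, Rbfaos and B230311B06Rik in CPM plus 1 on a log2 axis, with 1 point per embryo, sorted within each of the 16 groups, and a bar at the group median. In the upper 3 panels the medians of the Oct4-KO and Sox2-KO ICMs sit below those of their Ctrl, with overlap for Rbfaos in Sox2 early ICMs, and in the B230311B06Rik panel the Oct4-KO early ICMs, at 2.43 to 8.57 CPM, sit below the Ctrl at 25.5 to 67.2.

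2810429I04Rik and B230311B06Rik, Riken clones that overlap no annotated gene, fell on loss of Oct4. 2810429I04Rik (chr13:3478230-3501393, +) was called lower at all 3 stages of the Oct4 line. In early ICMs Ctrl was at 6.08, 14.3 and 21.9 CPM and KO at 1.21, 2.40 and 4.25, without overlap (-2.33 ± 0.38, adjusted p = 9.83e-07). In morulae Ctrl was at 1.89, 5.89 and 9.70 CPM and KO at 0, 1.83 and 3.17, with overlap (-1.73 ± 0.43, adjusted p = 0.0145), and this call was lost when every library was reduced at random to the smallest depth (adjusted p = 0.166). Its early effect differed from that of Sox2 loss by 2.12 ± 0.51 (adjusted p = 0.00315).

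B230311B06Rik (chr7:118592328-118596838, +) was at 25.5, 50.3 and 67.2 CPM in Oct4 Ctrl early ICMs and at 2.43, 7.15 and 8.57 in KO (-2.76 ± 0.38, adjusted p = 8.17e-09). In late ICMs Ctrl was at 26.8, 40.4 and 69.6 CPM and KO at 0, 6.73 and 30.3 (-2.09 ± 0.37, adjusted p = 2.83e-06). The groups were separate in early ICMs and overlapped in late ICMs. Early Sox2 Ctrl was at 19.7, 36.2 and 68.5 CPM and KO at 13.96, 26.5 and 56.7, and the difference between the effects of the lines was 2.58 ± 0.49 (adjusted p = 0.000126).

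The RefSeq promoters of both are shown for comparison with that of Platr10, with CpG in capitals. That of 2810429I04Rik is chr13:3477982-3478281 (+) and holds 11 CpG, and that of B230311B06Rik is chr7:118592035-118592334 (+) and holds 4.

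2810429I04Rik: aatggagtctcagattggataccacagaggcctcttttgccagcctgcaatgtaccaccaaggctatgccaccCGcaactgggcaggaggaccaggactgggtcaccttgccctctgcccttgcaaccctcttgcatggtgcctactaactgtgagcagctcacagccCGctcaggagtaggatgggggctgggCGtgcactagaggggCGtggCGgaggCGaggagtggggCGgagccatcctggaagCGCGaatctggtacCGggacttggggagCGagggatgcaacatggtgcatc
B230311B06Rik: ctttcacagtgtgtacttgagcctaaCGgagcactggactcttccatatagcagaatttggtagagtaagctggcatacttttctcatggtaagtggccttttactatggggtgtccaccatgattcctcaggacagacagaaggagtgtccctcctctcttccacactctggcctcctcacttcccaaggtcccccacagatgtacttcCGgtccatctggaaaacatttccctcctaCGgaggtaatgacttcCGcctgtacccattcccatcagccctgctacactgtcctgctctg

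Gm37867, 4930509G22Rik, Gm27234, Gm13166 and Gm20939 were further fallen members named by the rule, and Snhg12, Snhg14, Gm44618 and BC048559 are given below. Gm37867 (chr3:28852033-28854257, -) was at 79.9, 102.4 and 178.6 CPM in Oct4 Ctrl late ICMs and at 4.35, 10.5 and 34.3 in KO (-2.85 ± 0.41, adjusted p = 1.99e-08). All 8 KO embryos lay below all 8 Ctrl embryos. In Sox2 late ICMs Gm37867 was at 53.8, 85.9 and 123.7 CPM in Ctrl and at 7.07, 36.1 and 117.6 in KO, was not called, and differed in effect from Oct4 loss by 2.28 ± 0.55 (adjusted p = 0.00274). 4930509G22Rik was at 2.34, 8.19 and 21.9 CPM in Oct4 Ctrl early ICMs and at 0, 0.520 and 2.34 in KO (-3.38 ± 0.57, adjusted p = 2.61e-06), so that the lowest Ctrl touched the highest KO embryo.

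Gm27234 (chr9:76319577-76320846, +), antisense to the orexin receptor gene Hcrtr2, was at 9.68, 20.1 and 30.6 CPM in Sox2 Ctrl late ICMs and at 0, 1.33 and 9.29 in KO (-2.84 ± 0.55, adjusted p = 6.75e-05). The groups did not overlap, by a small gap. It was also lower in Oct4-KO late ICMs, at 0, 2.07 and 24.6 CPM against 6.70, 23.5 and 55.2 (-2.18 ± 0.50, adjusted p = 0.000262), where the groups overlapped. Gm13166 was lower in the late ICMs of both lines, by -1.31 ± 0.28 on loss of Oct4 and -1.22 ± 0.27 on loss of Sox2.

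Gm20939 (chr17:94864918-94878321, +) was called only on loss of Sox2 in early ICMs, where Ctrl was at 21.3, 34.0 and 43.7 CPM and KO at 9.49, 13.6 and 22.9 (-1.08 ± 0.24, adjusted p = 0.00123). The groups overlapped, and with libraries reduced to equal depth the log2 fold change was -0.99, short of 2-fold. Sox2-KO late ICMs were at 11.01, 15.2 and 24.4 CPM and their Ctrl at 18.9, 30.7 and 37.0, without a call. Gm20939 was 1 of 2 members, with 2700038G22Rik, whose promoter held the octamer ATGCAAAT that POU factors such as Oct4 recognise. The window chr17:94864651-94864950 (+) is shown with the octamer in capitals, starting at -195 from the start on the same strand.

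Gm20939: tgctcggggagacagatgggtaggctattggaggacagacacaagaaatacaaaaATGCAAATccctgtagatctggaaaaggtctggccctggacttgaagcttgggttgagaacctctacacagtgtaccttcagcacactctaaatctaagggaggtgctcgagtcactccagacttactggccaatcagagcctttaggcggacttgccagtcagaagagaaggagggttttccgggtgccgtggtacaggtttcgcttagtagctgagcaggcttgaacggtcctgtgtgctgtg

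Gm20939 was not called in the Oct4 line. Early ICMs were at 17.1, 33.4 and 72.9 CPM in Ctrl and at 18.7, 30.6 and 47.6 in KO.

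Gm models, 73 of the 150 members, made up 16 of the 23 members that rose in Oct4-KO early ICMs, 15 of the 20 in Oct4-KO late ICMs and 10 of the 13 in Sox2-KO late ICMs. They made up 5 of 14, 8 of 16 and 2 of 5 of those that fell, and the difference was not tested. Gm36899 (chr15:27459835-27463449, -), which overlaps no gene and starts 3228 bases from the divergent Ank, a gene of pyrophosphate transport, rose in 4 comparisons. In Oct4 late ICMs Ctrl was at 2.68, 7.07 and 39.9 CPM and KO at 42.4, 90.0 and 141.2 (3.19 ± 0.36, adjusted p = 3.93e-12). In Sox2 late ICMs Ctrl was at 4.07, 9.44 and 13.3 CPM and KO at 42.4, 68.2 and 97.1 (2.97 ± 0.36, adjusted p = 3.1e-10). Every late KO embryo was above every late Ctrl embryo in both lines. Gm36899 had its highest group mean in Oct4-KO late ICMs, at 98.4 CPM, so the KO groups may have brought it into the list. In Sox2 early ICMs Ctrl was at 2.21, 7.24 and 31.0 CPM and KO at 23.7, 46.4 and 79.1, with 1 Ctrl embryo inside the KO range (2.30 ± 0.35, adjusted p = 1.02e-06). In Oct4 early ICMs KO was at 2.44, 6.86 and 45.6 CPM against 1.13, 4.64 and 7.46, with much overlap (1.49 ± 0.46, adjusted p = 0.0118). Ank was called higher with Gm36899 in these comparisons, by 1.44 ± 0.32 in Oct4-KO and 1.72 ± 0.31 in Sox2-KO early ICMs and by 2.34 ± 0.32 and 1.29 ± 0.31 in late ICMs.

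Gm3143 (chr3:34699640-34716662, -) has Sox2 as its nearest protein-coding gene, with a start 66257 bases away. Its highest group mean was that of the Sox2-KO late ICMs, at 78.4 CPM, so the KO groups may have brought it into the list. In Sox2 late ICMs Ctrl was at 4.73, 12.5 and 17.6 CPM and KO at 34.9, 82.8 and 130.8, without overlap (2.78 ± 0.36, adjusted p = 2.5e-09). In Sox2 early ICMs Ctrl was at 0.951, 7.50 and 30.9 CPM and KO at 23.6, 37.6 and 80.2, with overlap (2.12 ± 0.36, adjusted p = 1.51e-05). The MWT early ICMs of the Sox2 line, whose mothers kept the gene, were lower than Ctrl, at 0, 1.45 and 3.71 CPM (MWT against Ctrl -2.60 ± 0.56, adjusted p = 0.00109). Primitive endoderm markers moved with this difference, with a summed level of 835 to 1276 CPM over 6 markers in MWT, 59.1 to 700.8 in Ctrl and 257 to 683 in KO, and their part in it was not tested. Sox2 itself changed by -3.35 ± 0.32 in the KO late ICMs.

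In the Oct4 line Gm3143 was low. Ctrl late ICMs held 2 UMIs in all, against 84 in the Sox2 Ctrl late ICMs, a ratio of 3.07% (0.366% to 11.4%), although both were Ctrl groups. Oct4-KO late ICMs were at 0, 3.66 and 24.4 CPM against 0, 0 and 1.90 in Ctrl (3.65 ± 0.84, adjusted p = 0.000284), and Oct4 MWT late ICMs were at 1.49, 3.998 and 6.01. The Sox2-line KO allele carries its PGK-driven reporter on this chromosome at Sox2, and Ctrl carries the deleted floxed allele, so that allele structure and loss of Sox2 cannot be told apart at this locus. The promoter of Gm3143 (chr3:34716613-34716912, -) is shown because it holds the Sox core CATTGT, in capitals, at -84 on the same strand.

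Gm3143: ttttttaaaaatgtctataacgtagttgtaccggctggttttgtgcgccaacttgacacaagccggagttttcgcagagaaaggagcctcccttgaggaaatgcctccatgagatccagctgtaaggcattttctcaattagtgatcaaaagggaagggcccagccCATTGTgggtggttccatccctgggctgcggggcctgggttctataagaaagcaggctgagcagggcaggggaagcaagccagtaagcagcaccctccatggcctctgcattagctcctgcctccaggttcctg

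Gm34059, Gm47805 and Gm43672, which overlap no annotated gene, rose in the late KO ICMs of both lines. Gm34059 (chr14:26315011-26324954, -) was at 1.37, 4.74 and 19.02 CPM in Oct4 Ctrl and at 6.24, 54.2 and 269.6 in KO (3.84 ± 0.51, adjusted p = 1.1e-09). The groups overlapped, and without the KO embryo at 269.6 the log2 fold change was 3.22. In Sox2 late ICMs Ctrl was at 5.38, 9.34 and 35.3 CPM and KO at 12.3, 49.2 and 159.8, with overlap (2.20 ± 0.43, adjusted p = 7.41e-05). In Ctrl this gene was highest in morulae, at medians of 58.7 CPM in the Oct4 line and 84.0 in the Sox2 line.

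Gm47805 (chr13:44622182-44625217, +) was at 0, 1.65 and 5.45 CPM in Oct4 Ctrl late ICMs and at 18.8, 24.3 and 37.7 in KO, without overlap (3.42 ± 0.43, adjusted p = 1.64e-10). On loss of Sox2 the late change was 1.78 ± 0.50 (adjusted p = 0.00898). Like Gm34059 it was highest in morulae among the Ctrl groups of the Oct4 line, at a median of 38.3 CPM. Gm43672 (chr3:22074412-22076142, -), which starts 510 bases from the divergent Tbl1xr1, a corepressor gene, was at 0, 4.74 and 12.7 CPM in Oct4 Ctrl late ICMs and at 14.5, 35.4 and 46.1 in KO, without overlap (2.59 ± 0.39, adjusted p = 6.2e-08). On loss of Sox2 it rose in late ICMs by 1.503 ± 0.387 (adjusted p = 0.00346). On loss of Oct4, Gm8016 was called higher in early (1.68 ± 0.50) and late ICMs (2.18 ± 0.51).

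**Figure D3:**
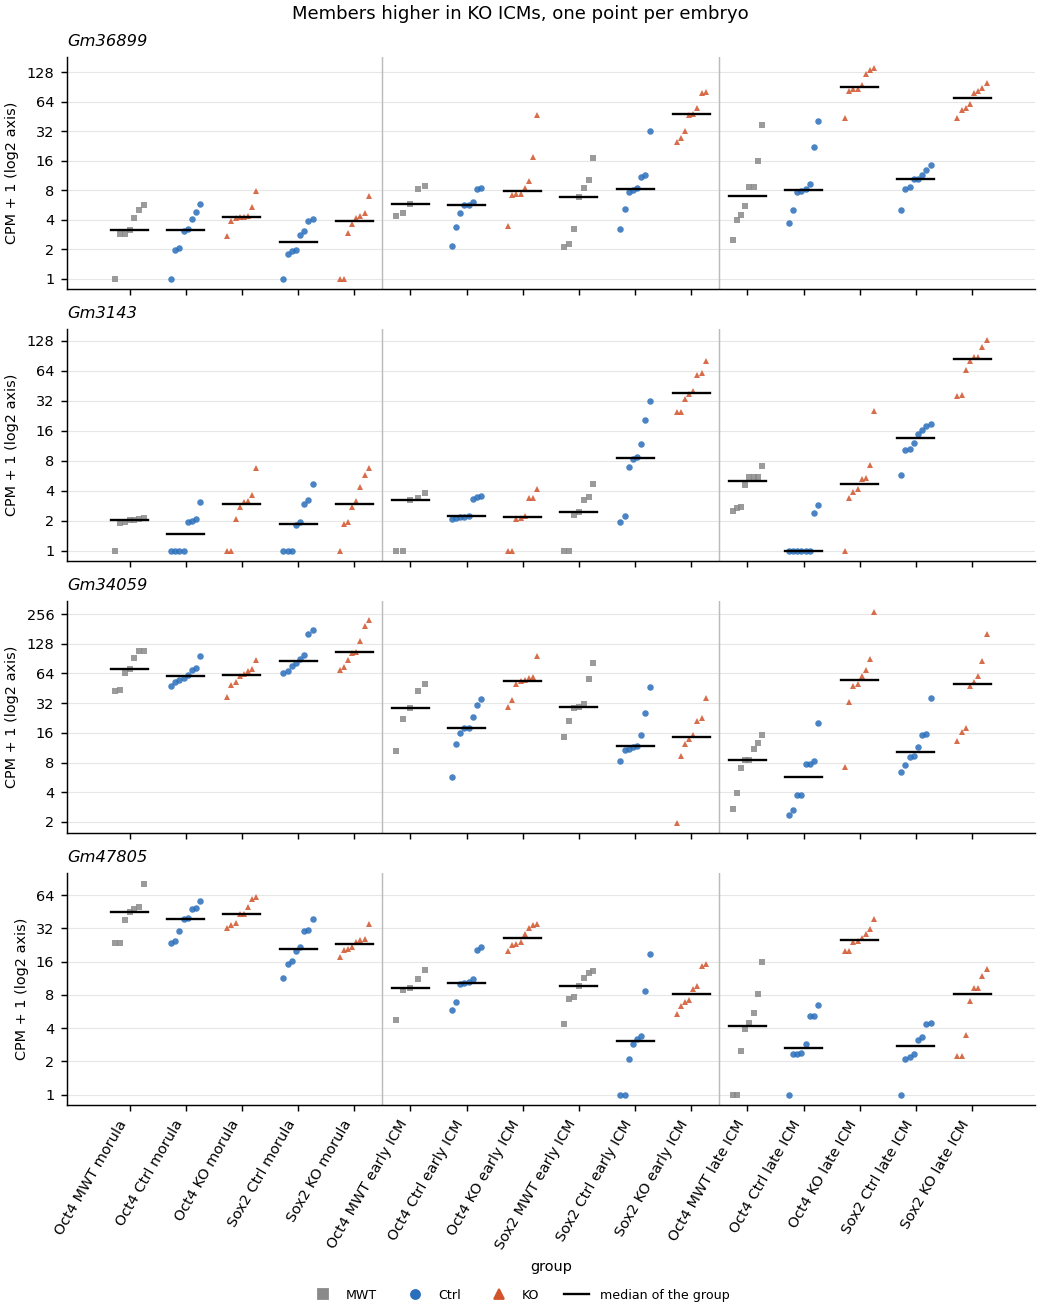
Levels of Gm36899, Gm3143, Gm34059 and Gm47805 in CPM plus 1 on a log2 axis, with 1 point per embryo, sorted within each group, and a bar at the group median. Late KO embryos of both lines lie above their Ctrl in the Gm36899 panel, at 42.4 CPM or more, and Gm3143 is high in the Sox2-line KO ICMs, at 23.6 to 130.8.

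In Oct4-KO early ICMs the rule named 9330136K24Rik, Gm40987, Gm34059, Gm8016 and Gm45774 as the highest. 9330136K24Rik (chr17:21528194-21535878, -), which overlaps the zinc finger gene Zfp52 on the opposite strand, was at 5.33, 8.35 and 14.95 CPM in Ctrl and at 15.2, 28.4 and 68.0 in KO (1.89 ± 0.34, adjusted p = 1.15e-05). The groups were separate by a small gap. The highest group mean of 9330136K24Rik was that of the Oct4 MWT early ICMs, whose mothers kept the gene, at 35.4 CPM. Zfp52 was also called higher, by 2.07 ± 0.51, and reads of the pair cannot be told apart without strand. Gm45774 rose by 1.54 ± 0.35 and overlaps Mt2, a metallothionein gene that rose by 1.18 ± 0.30. In the Sox2 line Gm4926, which was also called higher in Oct4-KO late ICMs (2.15 ± 0.66, adjusted p = 0.00737), rose in early KO ICMs by 2.98 ± 0.95 and Gm33466, the last member of the list, in late KO ICMs by 1.81 ± 0.49. The early Gm4926 call was lost with libraries reduced to equal depth (adjusted p = 0.0663).

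The snoRNA hosts were examined as a list. Of 16 members on that list, Snhg14 was called lower in Oct4-KO early ICMs, 6.25% beside 6.11% of all genes, Snhg12 was called lower in Oct4-KO late ICMs, 6.25% beside 8.85%, and 0 were called in any Sox2-KO comparison, beside at most 3.61% of all genes in 1 direction. Of the 24 members with an annotated snoRNA inside, A830008E24Rik was called higher (1.00 ± 0.31, adjusted p = 0.014) and Snhg14 lower in Oct4-KO early ICMs, each 4.17% of the list, beside 4.77% and 6.11% of all genes. Snhg12 was called lower in Oct4-KO late ICMs, again 4.17%, beside 8.85%. A further 2 (8.33%) were called higher in Sox2-KO late ICMs, beside 3.34% of all genes, namely Rab26os and Gm15832 (1.02 ± 0.32, adjusted p = 0.0207). The median log2 fold change of the 16 was -0.05 in early and -0.53 in late ICMs of Oct4 KO, beside 0.01 and -0.01 for all genes and 0.16 and 0.12 for all members. Snhg14 (chr7:59307924-59975759, -), the long imprinted host of the Snord115 and Snord116 clusters and antisense to Ube3a, was at 29.8, 51.0 and 79.4 CPM in Oct4 Ctrl early ICMs and at 3.64, 11.4 and 18.9 in KO (-2.16 ± 0.30, adjusted p = 1.88e-08). The groups did not overlap. The selection left out 5 imprinted genes but not this one. Its early effect differed from that of Sox2 loss by 1.40 ± 0.40 (adjusted p = 0.0161).

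Snhg12 (chr4:132308623-132311024, +), which holds 5 annotated snoRNAs, was at 45.4, 72.4 and 106.9 CPM in Oct4 Ctrl late ICMs and at 10.1, 23.1 and 40.6 in KO, without overlap (-1.36 ± 0.22, adjusted p = 2.74e-07). In Sox2 late ICMs it was at 54.3, 65.2 and 92.1 CPM in Ctrl and at 41.3, 54.5 and 91.9 in KO, and the difference between the effects was 1.21 ± 0.29 (adjusted p = 0.00332). Its promoter (chr4:132308428-132308727, +) is shown as an example of the CpG-rich windows of the hosts, with 18 CpG in capitals.

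Snhg12: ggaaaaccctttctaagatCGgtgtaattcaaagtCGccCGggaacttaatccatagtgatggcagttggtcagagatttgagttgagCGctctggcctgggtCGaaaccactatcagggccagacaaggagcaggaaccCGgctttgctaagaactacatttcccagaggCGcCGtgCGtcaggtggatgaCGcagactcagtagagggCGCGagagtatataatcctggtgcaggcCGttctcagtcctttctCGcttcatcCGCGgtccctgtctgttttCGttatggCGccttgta

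Gas5, rank 3 by UMI sum, had medians of 302.9, 312.9 and 242.6 CPM in Oct4 Ctrl morulae, early and late ICMs and of 346.8, 299.95 and 216.1 in KO. Zfas1, Snhg1 and Snhg5 were likewise called in 0 of the 19 comparisons of this report, as were Gas5 and 1110038B12Rik. Among the 6 widely expressed lncRNAs, Neat1, the scaffold of nuclear paraspeckles, was called higher in Oct4-KO early ICMs (1.39 ± 0.42, adjusted p = 0.01) and in Sox2-KO late ICMs (1.21 ± 0.41, adjusted p = 0.036), and the latter call was lost under library totals (adjusted p = 0.0555) and with the set of late ICM numbers as a block (0.93, adjusted p = 0.245). Each is 16.7% of the list, beside 4.77% and 3.34% of all genes called higher. Of the 8 members named as antisense or opposite strand, Rbfaos was called lower in 4 KO comparisons (12.5% of the list, beside 1.69% to 8.85% of all genes) and Rab26os was called higher in Sox2-KO late ICMs (1.17 ± 0.36, adjusted p = 0.0191), a call lost at equal depth (adjusted p = 0.076) and again 12.5% of the list, beside 3.34% of all genes. No microRNA host gene by name was among the members.

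Gm44618 and BC048559, the last of the 12 most abundant members, fell in Oct4-KO early ICMs. Gm44618 (chr7:28629248-28681936, +) overlaps Acp7, an acid phosphatase gene, on the opposite strand. It was at 76.0, 147.9 and 219.9 CPM in Ctrl and at 4.45, 27.7 and 64.7 in KO, without overlap (-2.14 ± 0.42, adjusted p = 3.89e-05). BC048559 (chr10:41746721-41783437, +) overlaps the centrosomal gene Cep57l1. It was at 27.2, 111.9 and 157.8 CPM in Ctrl and at 8.50, 15.7 and 99.3 in KO, with overlap through 1 KO embryo at 99.3 (-1.95 ± 0.37, adjusted p = 2.27e-05). Without that embryo the log2 fold change was -2.63. In late ICMs neither was called, and the early effects differed from those of Sox2 loss by 2.07 ± 0.56 for Gm44618 and 1.96 ± 0.49 for BC048559.

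The calls of the lines were then set side by side. The lines share no embryo. In early ICMs 5 members were called in the same direction in both, which is 13.5% of the 37 called on loss of Oct4 and 55.6% of the 9 called on loss of Sox2. They were Platr10, 4930566F21Rik and Rbfaos, which were lower, and Gm36899 and Eprn, which were higher. Over all genes tested the shared calls were 11.3% and 37.7% of those of the lines. In late ICMs 13 were called in both, 36.1% of 36 and 72.2% of 18, of which 8 were higher and 5 lower, and over all genes the shares were 21.5% and 55.9%. At each ICM stage 0 members were called in opposite directions, against 16 of the 1529 and 25 of the 2544 genes called on loss of Oct4. Between early and late ICMs, which also share no embryo, 15 members were called in the same direction on loss of Oct4 (40.5% of the early and 41.7% of the late calls) and 6 on loss of Sox2 (66.7% and 33.3%). Over all genes these shares were 57.9% and 34.8% for Oct4 and 55.3% and 26% for Sox2.

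Whether the effects of the lines differed was tested directly. In early ICMs 24 members (16.0%) were called, 11 with a higher and 13 with a lower effect of Sox2 loss than of Oct4 loss, while 5.52% of all genes were called. In late ICMs it was 11 members (7.33%), 8 and 3, beside 6.3% of all genes. The share of members in late ICMs was thus close to that of all genes. 2410006H16Rik, rank 4 by UMI sum, was among the late ones (1.005 ± 0.297, adjusted p = 0.0194), and without Oct4 Ctrl embryo 1-9 its difference was 0.91, short of 2-fold. It was at 194.0, 518.5 and 920.0 CPM in Oct4 Ctrl and at 165.2, 207.2 and 489.5 in KO, and at 339.2, 430.5 and 609.5 in Sox2 Ctrl and 258.3, 417.6 and 759.8 in KO, and neither KO comparison was called alone.

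**Figure D4:**
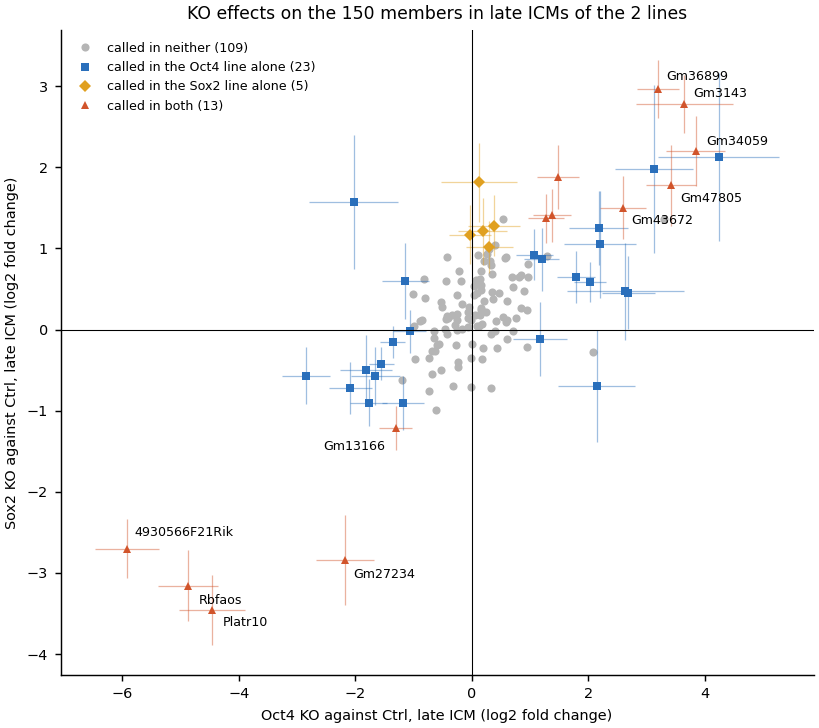
Log2 fold change of KO against Ctrl in late ICMs for each of the 150 members, Oct4 line on the x axis and Sox2 line on the y axis, with bars of 1 SE for members called in either line. Of the 150, 13 were called in both lines, 23 in the Oct4 line alone and 5 in the Sox2 line alone, and the 13 lie in the lower left or upper right.

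Between morula and early ICM the Ctrl embryos changed most. In the Oct4 line 33 members (22.0%) were higher and 26 (17.3%) lower in early ICMs, against 14.1% and 14.9% of all genes. The Sox2 line had 33 (22.0%) higher and 22 (14.7%) lower, against 17.2% and 14.7%. In 35 members the call had the same direction in both lines, 59.3% of the 59 and 63.6% of the 55, with 19 higher and 16 lower, and over all genes the shares were 54.0% and 49.1%. Snhg6 was called in opposite directions.

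Among the members lower in early ICMs than in morulae, Gm12446 (chr4:46300007-46345515, -), which overlaps the forkhead gene Foxe1 on the opposite strand, was at 8.48, 22.6 and 49.5 CPM in Oct4 Ctrl morulae and at 0, 1.17 and 2.37 in early ICMs. Sox2 Ctrl was at 17.5, 25.1 and 35.1 CPM and at 0, 0 and 2.08, with 2 against 223 UMIs in all, a ratio of 1.07% (0.128% to 3.90%). The stages did not overlap in either line. 4933408N05Rik fell from 30.9, 58.1 and 103.8 CPM to 0, 3.03 and 8.51 in the Oct4 line (-4.004 ± 0.435, adjusted p = 2.84e-13). 2310040G24Rik fell in both lines by -5.43 ± 0.82 and -4.20 ± 0.76, and its Oct4 Ctrl morulae ran from 1.03 to 303.2 CPM. Gm45441, antisense to Grwd1 and Grin2d, fell by -5.16 ± 0.50 and -3.13 ± 0.45.

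Among those higher in early ICMs, B230311B06Rik rose by 3.54 ± 0.40 in the Oct4 line and by 4.92 ± 0.49 in the Sox2 line. This is the gene that was low in Oct4-KO early ICMs. Sp3os (chr2:72979424-72988677, +), antisense to the transcription factor gene Sp3, was at 0, 1.46 and 4.48 CPM in Oct4 Ctrl morulae and at 5.67, 14.7 and 19.9 in early ICMs (2.83 ± 0.41, adjusted p = 8.49e-09), and at 0, 0.882 and 1.90 and 9.34, 16.9 and 36.5 in the Sox2 line (4.34 ± 0.43, adjusted p = 4.78e-15). Morulae and ICMs did not overlap. Gm48847 rose by 3.752 ± 0.694 in the Oct4 and 3.749 ± 0.694 in the Sox2 line, from medians of 1.56 and 1.02 CPM to 21.2 and 26.8. Gm37867 rose by 2.498 ± 0.5005 and 4.44 ± 0.50.

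Between early and late ICM the number of calls differed between the lines, and this difference was not tested. In the Oct4 line 16 members (10.7%) were higher and 26 (17.3%) lower in late ICMs, against 9.52% and 6.04% of all genes. The Sox2 line had 6 (4.00%) higher and 3 (2.00%) lower, against 1.94% and 0.961%. Between Oct4 and Sox2 Ctrl 24.0% of members were called in early ICMs, beside 9.94% of all genes, and 6.00% in late ICMs, beside 2.63%. Line or collection of the Oct4 Ctrl early ICMs, which enter both steps of that line, cannot be told apart from stage. The members held a median of 0.693% of UMIs in Oct4 Ctrl early and 0.548% in late ICMs, beside 0.494% and 0.526% in Sox2 Ctrl. Only 2 members were called in the same direction in both lines, 4.76% of 42 and 22.2% of 9, beside 10.3% and 55.5% over all genes. Gm27234 and Rbfaos were higher in both, at 1.38 ± 0.44 and 1.63 ± 0.36 in the Oct4 line and 1.41 ± 0.46 and 1.09 ± 0.35 in the Sox2 line. The Sox2-line values were near the threshold (adjusted p = 0.0416 and 0.0404) and were lost with only those groups in the fit (adjusted p = 0.0519 and 0.0729). Gm47761 was called in opposite directions, lower in the Oct4 line (-1.38 ± 0.43, adjusted p = 0.00828) and higher in the Sox2 line (1.51 ± 0.47, adjusted p = 0.03).

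The Ctrl groups of the lines were then compared. Relative to Oct4 Ctrl, 3 members were higher and 31 lower in Sox2 Ctrl morulae, a share of 22.7% beside 6.98% of all genes. In early ICMs 6 were higher and 30 lower, 24.0% beside 9.94%, and in late ICMs 2 higher and 7 lower, 6.00% beside 2.63%. The median log2 difference of the members was -0.42, -0.35 and -0.18, and that of all genes -0.03, 0.03 and 0.00. In morulae and early ICMs 17 members were lower in the Sox2 line at both stages, 50% of 34 and 47.2% of 36 counting the shared direction, and over all genes the shares were 12.4% and 8.73%. Line and collection cannot be told apart here.

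Gm42418 and Malat1 were high in the early ICMs of the Oct4 line. Gm42418 was at 940.6, 1074 and 1305 CPM in Oct4 Ctrl early ICMs and at 137.0, 179.7 and 404.1 in Sox2 Ctrl (-2.36 ± 0.21, adjusted p = 3.94e-16). The Oct4 MWT and KO early ICMs were high as well, at 1216, 1441 and 2127 CPM and at 971.2, 1487 and 2362, whereas no embryo of another stage or line exceeded 454.0. Malat1 (chr19:5795690-5802672, -), a nuclear speckle RNA, was at 213.1, 249.8 and 398.6 CPM in Oct4 Ctrl early ICMs and at 43.6, 64.4 and 98.5 in Sox2 Ctrl (-2.05 ± 0.25, adjusted p = 1.32e-10). Both genes separated the lines without overlap and were high in the early ICMs of all 3 genotypes of the Oct4 line. In late ICMs Malat1 was at medians of 120.8 and 99.9 CPM in the Ctrl groups.

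Gm15965 and BC051077 were higher in Oct4 Ctrl than in Sox2 Ctrl morulae too. Gm15965 (chr16:90983907-90987237, +), which overlaps the synaptojanin gene Synj1 on the opposite strand, was at 58.7, 87.6 and 108.1 CPM in Oct4 Ctrl morulae and at 17.9, 28.1 and 50.3 in Sox2 Ctrl (-1.46 ± 0.23, adjusted p = 5.5e-07). Oct4 MWT morulae were lower than Oct4 Ctrl, at 18.7, 38.5 and 59.2 CPM (-1.17 ± 0.25, adjusted p = 0.0175), with overlap. In early ICMs it was at 58.6, 103.3 and 153.1 CPM and at 19.9, 28.8 and 50.9 (-1.62 ± 0.24, adjusted p = 5.53e-08). BC051077 (chr5:117312518-117315645, -) was at 114.7, 156.0 and 193.9 CPM in Oct4 Ctrl early ICMs and at 34.2, 52.1 and 99.6 in Sox2 Ctrl (-1.43 ± 0.23, adjusted p = 8.96e-07). Oct4 and Sox2 Ctrl embryos did not overlap in any of these 3 line comparisons. Gm38973 differed most in morulae among the line calls the rule named (-2.23 ± 0.35), at 26.2, 33.5 and 69.2 CPM against 1.94, 7.61 and 13.9, and was followed by Gm50375 (-2.10 ± 0.41) and A930005H10Rik (-2.02 ± 0.42). AA465934 (-3.84 ± 1.16) and Gm42067 (-2.82 ± 0.60) led the early ICMs, with AA465934 at 3 UMIs in all Sox2 Ctrl embryos against 53, a ratio of 5.19% (1.04% to 16.0%). In late ICMs Gm49504 was lower in Sox2 Ctrl (-2.05 ± 0.43, adjusted p = 0.000726), at 2.17, 4.92 and 18.8 CPM against 2.68, 15.9 and 83.5, with overlap.

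Snhg6, which hosts Snord87, took opposite courses. In the Oct4 line it was at 192.7, 267.5 and 304.5 CPM in Ctrl morulae and at 56.5, 126.7 and 169.6 in early ICMs (-1.21 ± 0.33, adjusted p = 0.00138). In the Sox2 line it was at 82.8, 116.5 and 163.2 CPM in morulae and at 173.3, 267.9 and 327.1 in early ICMs (1.14 ± 0.32, adjusted p = 0.00211). The stages did not overlap in either line, and the lines did not overlap at either stage. Late Ctrl ICMs were at medians of 337.3 and 333.5 CPM, with a wide range in the Oct4 line, from 61.8 to 627.1.

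Gm26917 rested on a single embryo. Its late ICMs were at 13.3, 27.7 and 1145 CPM in Oct4 Ctrl and at 2.36, 10.96 and 105.7 in Sox2 Ctrl (-3.01 ± 0.81, adjusted p = 0.0133). The next highest Oct4 Ctrl embryo was at 47.3, and without the embryo at 1145 the log2 difference was -0.31 and the call was lost (adjusted p = 0.892).

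**Figure D5:**
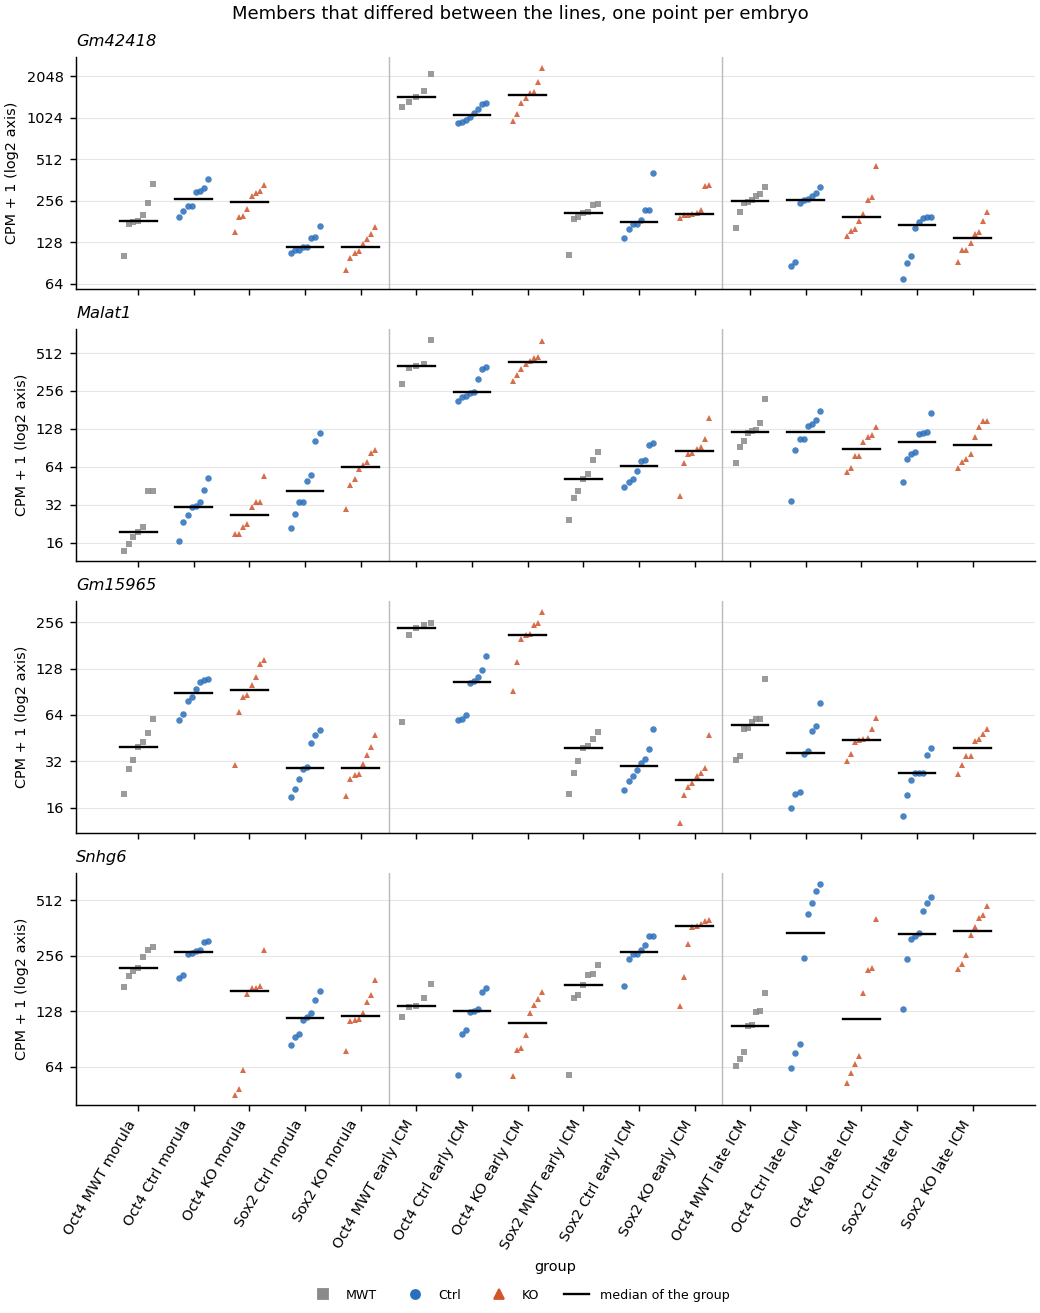
Levels of Gm42418, Malat1, Gm15965 and Snhg6 in CPM plus 1 on a log2 axis, with 1 point per embryo, sorted within each group, and a bar at the group median. The Oct4-line early ICMs of all 3 genotypes stand above the other groups for Gm42418, at 940.6 CPM or more, and the Malat1 medians there are 249.8 to 431.8 CPM, against at most 120.8 in any other group.

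MWT embryos were then set against Ctrl, in a fit of all 16 groups over 13923 genes. In Oct4 morulae 0 members were higher and 2 lower in MWT (1.33% beside 0.0646% of all genes), in early ICMs 4 higher and 0 lower (2.67% beside 0.373%), and in late ICMs 0 higher and 6 lower (4.00% beside 0.797%). In Sox2 early ICMs 4 were higher and 4 lower (5.33% beside 2.58%). The MWT embryos came from other mothers than Ctrl and inherited an intact maternal allele, so that mother, maternal product and gene dose in the embryo cannot be told apart. For the Oct4 MWT ICMs, whose source names gave an earlier stage than their titles, a difference of stage cannot be told apart either.

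9330136K24Rik was named in 2 of these. In morulae it was at 0, 2.07 and 7.12 CPM in Oct4 MWT and at 6.12, 13.3 and 27.7 in Ctrl (-2.05 ± 0.43, adjusted p = 0.0145). In early ICMs the 5 MWT embryos were at 11.1 to 70.1 CPM with a median of 39.9, and Ctrl at 5.33, 8.35 and 14.95 (1.88 ± 0.38, adjusted p = 0.00356). The groups overlapped in each. MWT and KO early ICMs, which are compared with the same Ctrl embryos, had medians of 27.6 and 23.7 CPM for Gm17276 against 8.16. Leaving out MWT embryo 3 ended the call of 9330136K24Rik (adjusted p = 0.0703) and that of Gm17276 (adjusted p = 0.0575), which was also lost without embryo 1 (adjusted p = 0.059). Over the 5 embryos left out in turn the share of members called was 0% without embryo 3, 1.33% without embryo 1, 8 or 9, and 9.33% without embryo 7. 2310058D17Rik was at 12.01 to 24.5 CPM in MWT and 5.10 to 11.3 in Ctrl, without overlap (1.32 ± 0.34, adjusted p = 0.0327), and was called without embryo 7 alone of the 5 that were left out in turn.

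In Oct4 late ICMs MWT was below Ctrl for Snhg6, at 63.7, 105.8 and 160.1 against 61.8, 337.3 and 627.1 CPM (-1.77 ± 0.32, adjusted p = 0.000329), for Rab26os (-1.98 ± 0.43) and for 1700096K18Rik (-1.44 ± 0.26). Neat1 was higher in Sox2 MWT early ICMs, at 39.6, 102.7 and 139.6 CPM in MWT and at 2.46, 7.18 and 30.1 in Ctrl, without overlap (3.18 ± 0.41, adjusted p = 1.57e-08). Primitive endoderm markers moved with it, with a summed level of 835 to 1276 CPM over 6 markers in these MWT embryos and 59.1 to 700.8 in Ctrl, and their part in the difference was not tested. AA465934 had 55 UMIs in these MWT embryos and 3 in Ctrl (4.19 ± 1.15, adjusted p = 0.0135), so that Ctrl stood at 4.17% of MWT (0.835% to 12.8%). Rbfaos was also higher in these MWT embryos, at 15.2, 55.6 and 65.6 CPM against 1.04, 11.9 and 29.8 (1.76 ± 0.38, adjusted p = 0.0011).

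The genes beside the members were examined last. For 119 members the nearest protein-coding gene was itself tested. In Oct4-KO early ICMs 29 of the 119 were called, with a called neighbour of the same direction in 4 and of the opposite direction in 3. In Oct4-KO late ICMs it was 29, with 4 and 1, in Sox2-KO early ICMs 8, with 1 and 1, and in Sox2-KO late ICMs 15, with 1 and 1. Among members that were not called, the neighbour was called in 8 of 90 in Oct4-KO early ICMs, 13 of 90 in Oct4-KO late ICMs, 3 of 111 in Sox2-KO early ICMs and 8 of 104 in Sox2-KO late ICMs. Whether these shares differ was not tested. The late Oct4 pairs in the same direction were Gm36899 and Ank, Gm12446 and Foxe1, Gm4926 and the developmental pluripotency gene Dppa1, and Gm43672 and Tbl1xr1. The opposite pair in the Sox2-KO ICMs was Gm3143 and Sox2, the deleted gene itself, so that its fall was set by the genotype.

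A RefSeq promoter of 300 bases was matched for 67 members. CATTGT was found on either strand in 6 of them (8.96%) and in 12.6% of all 32851 promoters, the octamer ATGCAAAT in 2 (2.99%) and in 1.74%, and CATTGT followed directly or after 1 base by ATGCAA in 0 and in 0.0152%. A match is a description of the letters and not of binding. Of the 67 windows, 48 lay within 100 bases of the annotated start of the member, and the furthest lay 8880 bases away. The observed over expected CpG ratio had a median of 0.782 in the members and of 0.384 in all promoters. It was 0.916 in 12 snoRNA hosts and 0.849 in 44 members called in no KO comparison. It was 0.396 in 9 of the 24 members that were lower in at least 1 KO comparison and higher in none, and 0.509 in 14 of the 38 that were higher and never lower. Platr10 was at 0.0604 and Snhg12 at 0.859.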

How the data were processed

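Single mouse embryos were sequenced by a UMI-based, 3′-enriched method. Per the methods of the authors, reads were processed with UMI-tools and Cutadapt, aligned to mm10 with TopHat2, assigned to GENCODE vM23 genes with featureCounts and corrected with TRUmiCount. The deposited table holds these UMI counts for 29022 genes without normalization. The deposited rlog table, a transformed form of the same data, was not used. Gene positions came from GENCODE vM21 of the same build (GRCm38), which held 28945 of the 29022 genes and all 150 members, 148 with unchanged coordinates and 143 with an unchanged symbol. Promoters were RefSeq windows of GRCm38.p6.

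The members and gene lists were chosen with earlier results of these data known. Counts were fitted in R 4.3.3 with edgeR 4.0.16 (genes with a UMI in at least 50% of the embryos of a stage, TMM scaling, glmQLFit and glmQLFTest), Ctrl and KO together (12 groups, 96 embryos, 14053 genes) and all 16 groups for MWT (13923 genes), with Benjamini-Hochberg adjustment over all genes tested. SE was the log2 fold change divided by the square root of F. CPM was taken over library totals, with no further scaling. Intervals of UMI ratios are exact and cover counting error only. Depth was 525755 to 1344035 UMIs per embryo. Tests were checked on simulated data.

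Named in the text were the 12 largest UMI sums and up to 5 lowest and 5 highest log2 fold changes per KO comparison, where the higher group averaged at least 5 CPM and every KO embryo lay on 1 side of the Ctrl median. Also named were up to 4 each way per stage step among members called alike in both lines, up to 3 per line or MWT comparison, ranks 149 to 152, and list members called in a KO comparison. A830008E24Rik, AI506816, Dleu2, Eprn, Gm15832, Gm47761, Lncenc1, Platr27, Snhg20, Snhg4, 2700038G22Rik and the neighbouring genes fall outside this rule and were chosen after their values were seen. Alternatives were DESeq2 1.42.0, library totals, no count filter, no fold minimum, other sets of embryos in the fit, equal depth, a replicate block and members free of coding overlap.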

Additional observations from a re-analysis of the deposited data

Results flagged for a closer look

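The cut-off for an embryo that stands apart gives about 1 in 20 by chance for normally distributed values. Among 99 sets of embryos tested for named members, 17 had an embryo that stood apart from the rest of its group. In KO embryos of the Oct4 line these were morula 5 for Platr10 at 3.24 CPM, early ICM 10 and late ICM 2-6 for 4930566F21Rik at 1.04 and 1.19 CPM with all others of their groups at 0, and late ICM 2-5 for Rbfaos at 4.35 CPM. Early ICM 5 stood apart for BC048559 at 99.3 CPM, the others at 8.50 to 30.4, and late ICM 1-8 for Gm34059 at 269.6 CPM, the others at 6.24 to 88.1. In the Sox2 line KO late ICM 1-5 stood apart for 4930566F21Rik at 8.13 CPM. Counts of few UMIs are not normally distributed, so 17 is not read as an excess of odd embryos. Where all other embryos of a group were at 0, an embryo with a UMI stood apart by construction.

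In Oct4 Ctrl the embryos that stood apart were early ICM 4 for Rbfaos at 22.5 CPM, late ICM 1-4 for Gm37867 at 178.6, late ICM 2-1 for Gm34059 at 19.02 and morula 16 for Gm38973 at 69.2. Oct4 Ctrl late ICM 1-9 held Gm26917 at 1145 CPM, with the other 7 embryos at 13.3 to 47.3. In Sox2 Ctrl they were early ICM 7 for Gm36899 at 31.0 CPM, early ICM 2 for Gm12446 at 2.08, early ICM 4 for Gm42418 at 404.1, late ICM 1-4 for Gm34059 at 35.3 and late ICM 2-3 for Gm26917 at 105.7.

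The effects of Sox2 and Oct4 loss differed by the test of the difference, given here as the Sox2 effect minus the Oct4 effect on the log2 scale, with edgeR adjusted p-values. In early ICMs the difference was positive for 4930566F21Rik (3.09), B230311B06Rik (2.58), 4930509G22Rik (2.24 ± 0.73, adjusted p = 0.0387), 2810429I04Rik (2.12), Gm44618 (2.07, adjusted p = 0.0102), BC048559 (1.96, adjusted p = 0.00489) and Snhg14 (1.40). It was negative for Gm45441 (-4.12 ± 1.09, adjusted p = 0.00818), 9330136K24Rik (-2.26 ± 0.62, adjusted p = 0.0111), Gm8016 (-2.25 ± 0.69, adjusted p = 0.0259), Gm38973 (-1.43 ± 0.46, adjusted p = 0.0369) and Gm15965 (-1.39 ± 0.34, adjusted p = 0.00356). Without Oct4 KO embryo 5 the call of Gm38973 was lost (-1.32, adjusted p = 0.0639).

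In late ICMs the difference was positive for Gm26917 (3.60 ± 1.13, adjusted p = 0.0293), 4930566F21Rik (3.22), Gm37867 (2.28), Snhg12 (1.21) and 2410006H16Rik (1.005), and negative for Gm4926 (-2.84 ± 0.95, adjusted p = 0.0438). Without Oct4 Ctrl embryo 1-9 the difference of Gm26917 was 0.91 ± 1.08 (adjusted p = 0.685) and that of 2410006H16Rik 0.905 (adjusted p = 0.0407).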

How the results depend on the processing

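Of 687 alternative values for 96 named calls, 629 kept direction and call, 58 kept direction but lost the call and 0 reversed. DESeq2 lost 0 of 96 calls, library totals 1, equal depth 6 of 85, the 2 groups alone 5 of 84, the set of late ICM numbers as a block 1 of 23 (Neat1 in Sox2 KO), the replicate block 16 of 38, and its embryos without the block 19 of 38. Of 153 shares of members called, 131 stayed within 1.5 times. The cause of the moves was not tested, except that a dropped fold minimum, fewer embryos or fewer members act by construction. The shares of all genes under these alternatives are not given, so the shares below are no comparison of members with other genes. Without a fold minimum the shares were 41.3% and 36.7% for Oct4 KO early and late ICMs, 18.7% for Sox2 KO late ICMs, 59.3% for early ICM against morula in the Oct4 line, and 34.0% and 39.3% for the line difference in morulae and early ICMs. At equal depth late against early ICM in the Sox2 line gave 3.33% and the early difference of effects 10.0%. For Oct4 MWT early ICMs library totals gave 5.33%, DESeq2 4.67%, and leaving out 1 MWT embryo 0% to 9.33%. With only members free of coding overlap, MWT morulae, early and late ICMs gave 0%, 0% and 2.13%. Scaling by totals moved the median of all genes by 0.10 in early ICM against morula of the Oct4 line.

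Replicate numbers shared by Ctrl and KO were not taken as pairs, since neither the labels nor every correlation marked them as such. In 13 pairs the correlation of deviations ran from -0.089 to 0.242, and 7 were over 0.1. The replicate block used 26 embryos, left 9 residual degrees of freedom and called 2.0%, 10.0%, 5.33% and 11.3% of members in Oct4 morulae, Oct4 early, Sox2 early and Sox2 late ICMs. The same embryos without a block, an alternative chosen after seeing the data as was leaving out Oct4 embryos 1-9, 1-8 and 5, gave 0.667%, 6.67%, 3.33% and 8.67%. The shares of all genes in these fits are likewise not given. For Sox2 morulae, which shared no number, and Oct4 late ICMs, which shared 1, no such block could be fitted. Counts below about 1 CPM rest on single UMIs.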
